A study of Rattus norvegicus with 12 samples.

Results

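Among neurons of the rat hippocampus, 6 genes had high signals in CA1 and low signals in CA3, and their levels were followed through 4 brain regions. They are *Wfs1*, *Mpped1*, *Cfap90*, *Adgrl2*, *Ttc9* and *Lratd1*, 6 of the 10411 genes with 1 symbol on the array, and 8 probe sets stand for them. The main probe set of each, that with the highest mean signal, passed the filter on low values for 6 of the 6. The genes were chosen by the ratio of their CA1 to CA3 signals on these same arrays, so that ratio is given as a description and supports nothing further. RNA came from untreated Fisher 344/BN F1 rats aged 6 months. Neurons were lifted from stained cryosections by laser capture microdissection (LCM), in which a laser fuses selected cells to a film. The 4 groups were the pyramidal cell layers of hippocampal CA1 and CA3, the granule cell layer of the cerebellum (CbG) and, in the frontal cortex (CTX), layers IV to VI, with 3 replicates each on 12 Affymetrix RAE230A arrays. Within the study CA1 and CbG stand for neurons vulnerable to oxidative stress and CA3 and CTX for resistant ones. All groups came from the same untreated strain and age, and all RNA was amplified in 2 cycles before labelling.

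CA1 and CA3 pyramidal cells are successive stations of the hippocampal circuit, and CA3 axons drive CA1 dendrites. The layers look alike in a stained section but express different sets of genes. *Wfs1* encodes wolframin, a membrane protein of the endoplasmic reticulum that takes part in calcium handling and in the response to unfolded proteins, and its loss causes Wolfram syndrome, with diabetes and optic atrophy. *Adgrl2* encodes latrophilin 2, an adhesion G protein-coupled receptor whose outer part binds teneurins and FLRT proteins across the synaptic cleft. *Mpped1* encodes a metallophosphoesterase domain protein of the brain, *Cfap90* a protein named for cilia and flagella, *Ttc9* a protein with tetratricopeptide repeats, which bind other proteins, and *Lratd1* a protein with an LRAT domain.

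RefSeq promoters (GRCr8, 250 bases before to 50 after the gene start) were given for 5 of the 6 genes and not for *Ttc9*. The 4 sequences shown belong to the 2 pairs with the highest Pearson correlation of centred log2 signals among the 6 genes over the 12 arrays. These were *Mpped1* with *Cfap90* (0.954) and *Wfs1* with *Lratd1* (0.864). The second pair fell in different forms by region below, and *Wfs1* ran closer to a gene outside the 6, *Sec14l1* (0.982). They read 5′ to 3′ on the strand of the gene, and capitals mark the letters of a searched motif on either strand.
Wfs1, chr14:78034955-78035254, + strand: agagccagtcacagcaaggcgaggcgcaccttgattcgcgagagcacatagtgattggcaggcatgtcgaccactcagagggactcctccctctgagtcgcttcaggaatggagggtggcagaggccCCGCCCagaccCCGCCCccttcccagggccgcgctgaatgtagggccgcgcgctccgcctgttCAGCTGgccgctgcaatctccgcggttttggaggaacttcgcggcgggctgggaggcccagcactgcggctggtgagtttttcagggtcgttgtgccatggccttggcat
Lratd1, chr6:42650939-42651238, - strand: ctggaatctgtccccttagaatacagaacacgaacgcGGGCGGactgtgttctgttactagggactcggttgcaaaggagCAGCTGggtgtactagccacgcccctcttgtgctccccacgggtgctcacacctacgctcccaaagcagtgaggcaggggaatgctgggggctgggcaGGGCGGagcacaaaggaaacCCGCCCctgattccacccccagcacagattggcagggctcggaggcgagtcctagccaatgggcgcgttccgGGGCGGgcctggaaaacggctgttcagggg
Mpped1, chr7:116824504-116824803, + strand: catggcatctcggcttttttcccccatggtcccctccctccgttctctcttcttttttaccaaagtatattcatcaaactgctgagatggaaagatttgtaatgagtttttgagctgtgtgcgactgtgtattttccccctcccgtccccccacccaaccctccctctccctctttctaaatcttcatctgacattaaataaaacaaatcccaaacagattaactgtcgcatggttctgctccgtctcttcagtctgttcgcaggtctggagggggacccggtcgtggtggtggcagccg
Cfap90, chr1:36678254-36678553, - strand: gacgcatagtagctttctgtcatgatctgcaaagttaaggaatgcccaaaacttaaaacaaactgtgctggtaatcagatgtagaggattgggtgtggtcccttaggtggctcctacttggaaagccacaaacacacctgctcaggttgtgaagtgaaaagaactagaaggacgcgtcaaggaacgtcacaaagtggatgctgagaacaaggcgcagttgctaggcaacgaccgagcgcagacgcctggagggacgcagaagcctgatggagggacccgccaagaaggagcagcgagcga
The search took in 6 motifs on both strands, namely ATGCAAAT, the octamer of POU factors, then TGACGTCA, the cyclic AMP response element, the E-box CAGCTG, the further E-box spelled CACGTG, the GC box spelled GGGCGG, and TATAAA. No match overlapped another in these windows. In the *Wfs1* window CAGCTG started at -60 from the gene start and 2 GC boxes lay on the opposite strand at -123 and -112. The *Lratd1* window held CAGCTG at -170 and GC boxes at -213, -72 and 20, with 1 more on the opposite strand at -52. Neither the *Mpped1* nor the *Cfap90* window held any of these letters, and that of *Adgrl2* held TATAAA on the opposite strand at -30. Among all 33469 promoters, CAGCTG was found in 15.06%, GGGCGG in 33.06%, TATAAA in 14.22%, CACGTG in 6.42%, TGACGTCA in 1.83% and ATGCAAAT in 1.78%. The G and C content was 64.7% for *Wfs1*, 62.7% for *Lratd1*, 51.7% for *Cfap90*, 49.3% for *Mpped1* and 40.3% for *Adgrl2*, against a median of 51.7%.

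In all, 2 arrays went against their labels. Across probe sets, the array labelled CA3 rep 3 correlated with CbG replicate 1 at r = 0.932 and with CA3 replicate 1 at 0.866. The array labelled CbG rep 3 correlated with CA3 replicate 1 at r = 0.933 and with CbG replicate 1 at 0.858. Summed signals of 7 granule cell markers, of 9 listed, were 37890 to 47932 in CbG replicates 1 and 2, 41843 in the array labelled CA3 rep 3 and 2370 in that labelled CbG rep 3. Values are therefore given over the 10 other arrays, and again over 12 arrays as labelled and over 12 arrays with these 2 labels exchanged.
The array labelled CbG rep 3 also carried more CA1 signal than CA3 replicates 1 and 2. It lay above both of them for 6 of 7 usual CA1 markers, against 33.8% of all probe sets tested, and below every CA1 array for 7 of those 7. For the 6 genes it did so in 6 of 6, a count from which nothing is read since low CA3 signals helped to choose them. The sum over the 7 markers was 10243 to 10740 in CA1, 1146 to 1620 in CA3 replicates 1 and 2, and 2458 in this array. On the log2 scale it exceeded the mean of CA3 replicates 1 and 2 by 3.01 for *Mpped1*, 2.31 for *Wfs1*, 2.12 for *Adgrl2*, 1.51 for *Cfap90*, 0.72 for *Ttc9* and 0.53 for *Lratd1*. What part its place or content has in the values below was not tested, and values that rest on it are given with and without it for the comparisons of CA1 with CA3, CA1 with CbG and CTX with CbG.

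Other cells than the named neurons could be in a capture. In CA1, 7 of 7 CA1 markers on the array lay above the array median in all 3 arrays. In CA3, CbG and CTX 3, 1 and 4 of them did so. Of 7 granule cell markers, 6 did so in CbG, against 3 in CA1, 3 in CA3 and 2 in CTX. Of 3 CA3 markers, 2 did so in CA3, but also 2 in CbG, 2 in CTX and 1 in CA1. Of 6 cortical layer markers, 2 did so in CTX and 3 in each of CA1, CA3 and CbG. Among these, *Tbr1* was under the array median in every array. The counts of the CA3 and cortical lists thus do not set CA3 or CTX apart. Sums of the CA3 markers were 2502 to 3121 in CA3 and at most 1801 in CA1, CbG and CTX. Most of the CA3 sum was *Bok*, at 1690.6 and 2021.0, against 1509.5 to 1583.1 in CA1. *Grik4* gave 679.9 and 969.0 in CA3 and at most 256.6 in CA1, CbG and CTX. *Prkcd* went the other way, dim in CA3 at 131.8 and 131.0, with 569.2 to 720.9 in CbG and 301.0 to 550.2 in CTX. Of 6 oligodendrocyte markers 5 were on the array, with sums of 3850 to 5121 in CA1, 8155 to 10521 in CA3, 9641 to 12460 in CbG and 22140 to 35487 in CTX. Sums of 7 interneuron markers were 7839 to 9220 in CA1 and 3888 to 5161 in CA3. They were 6062.5 to 10303.5 in CbG and 12143 to 16583 in CTX. For 8 astrocyte markers the sums were 11373.5 to 15728 in CA1 and 9250 to 15474.5 in CA3. In CbG they were 23156 to 27573 and in CTX 19022 to 33389. In such pooled captures a lower share of a cell type and less RNA per cell cannot be told apart. The part of these other cells in the levels below was not tested.

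The unit below is the MAS5 signal, a linear intensity that the authors' software scaled to a common target on each array. Medians of the arrays lay between 145.5 and 199.3, and a signal at or under its array's median is called dim here. Levels are compared between arrays for 1 probe set and never between genes. Where every array of the lower region was dim, a fold is given as at least the fold over the array median.

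**Figure D1:**
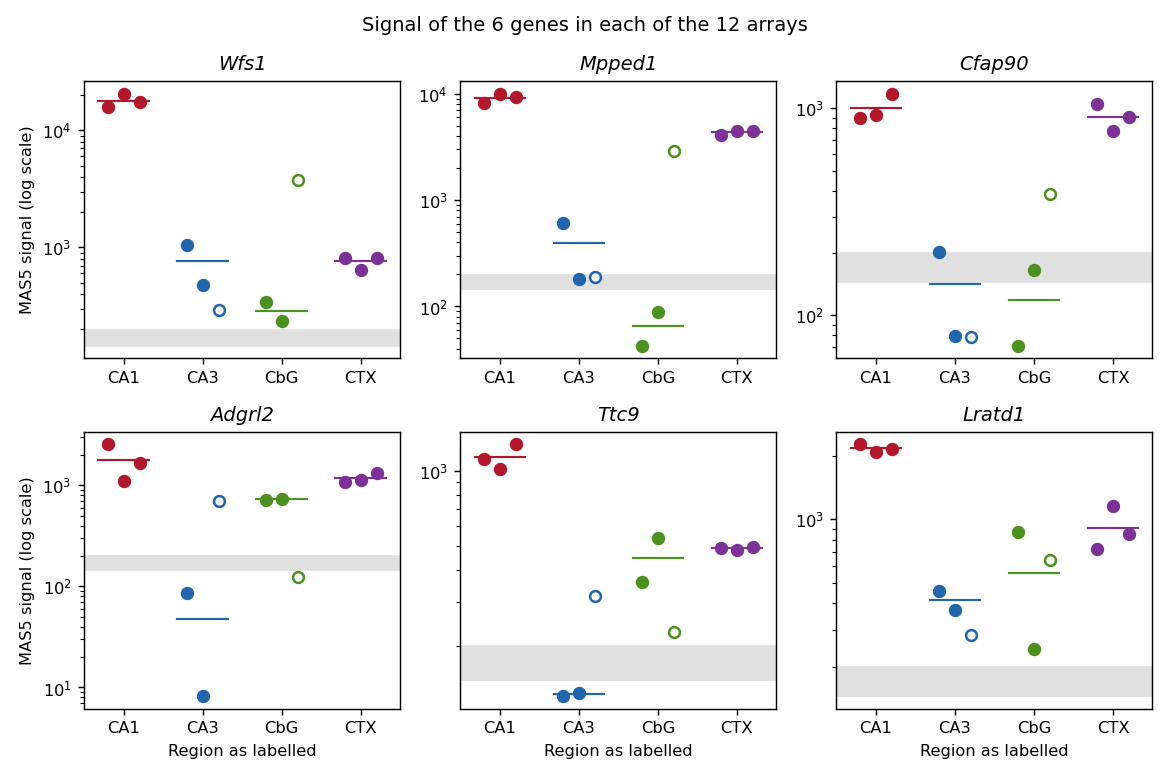
MAS5 signal (log axis) of the main probe set of each of the 6 genes in the 12 arrays by labelled region, with lines at the means of the filled points and a grey band over the range of array medians. Open circles are the arrays labelled CA3 rep 3 and CbG rep 3; for *Wfs1* the 3 CA1 arrays lie between 15688.4 and 20537.9 and every other array lies at 3769.0 or lower.

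*Wfs1* was the gene nearest to CA1 alone. Its 3 CA1 arrays gave 15688.4, 20537.9 and 17373.0, and the 2 CA3 arrays 1044.7 and 481.4. In CTX the signals were 816.1, 644.7 and 815.7, and in CbG 343.5 and 233.7. CA1 thus stood far above all other arrays, CA3 and CTX overlapped, and CbG lay lowest without reaching the dim range. Mean CA1 signal was 17866 ± 2462 (SD, n = 3), 23.4 times that of CA3, 23.5 times that of CTX and 61.9 times that of CbG. The array labelled CA3 rep 3 gave 290.0, within the range of CbG, and that labelled CbG rep 3 gave 3769.0, above every CA3, CbG and CTX array. As labelled, the CA3 mean was 605 and the CbG mean 1449. With the labels exchanged they were 1765 and 289, and CA1 was 10.1 times CA3.
A second *Wfs1* probe set was also highest in CA1. It gave 1083.0, 878.8 and 1384.1 in CA1, and 49.2 to 153.2 in the 7 arrays of the other regions, all of them dim. CA1 was at least 7.04-fold higher than each of the other regions by this probe set. The arrays labelled CA3 rep 3 and CbG rep 3 gave 91.6 and 285.2.

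*Mpped1* was shared by CA1 and CTX. CA1 gave 8242.8, 10027.9 and 9240.5, and CTX gave 4081.6, 4471.5 and 4429.7. In CA3 the signals were 609.6 and 181.6, and in CbG 42.9 and 89.5. No region overlapped another, and both CbG arrays were dim. Mean CA1 signal was 9170 ± 895 (SD, n = 3), 2.12 times the CTX mean of 4328 ± 214 (n = 3) and 23.2 times the CA3 mean, and at least 58.7-fold higher than CbG. The array labelled CA3 rep 3 gave 189.5, next to CA3 replicate 2 but above both CbG arrays, and that labelled CbG rep 3 gave 2874.0, between CA3 and CTX. With the labels exchanged, CA1 was 7.51 times CA3, and as labelled 28.1 times.

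*Cfap90* was as high in CTX as in CA1. The CA1 signals were 900.2, 924.0 and 1178.4 and those of CTX 1045.0, 777.9 and 908.0, so the 2 regions overlapped. CA3 gave 202.9 and 79.3 and CbG 71.5 and 165.8, which overlapped each other, and 3 of these 4 arrays were dim. Mean CA1 signal was 1001 ± 154 (SD, n = 3), 7.09 times CA3, 1.10 times CTX and at least 6.38-fold higher than CbG. The arrays labelled CA3 rep 3 and CbG rep 3 gave 78.5 and 386.4, the second of them above every CA3 and CbG array. Markers of ciliated ependymal and choroid cells were dim in this set of captures. Of 7 such genes 4 were on the array, none was above the array median in all arrays of any region, and their sums were 201.9 to 267.6 in CA1, 191.7 to 237.5 in CA3, 250.6 to 253.1 in CbG and 244.7 to 351.3 in CTX.

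*Adgrl2* was high in 3 regions and dim in CA3. CA1 gave 2544.6, 1098.3 and 1658.4, the widest relative spread among CA1 arrays of the 6 genes. CTX gave 1073.6, 1125.6 and 1324.7, CbG 713.3 and 736.5, and CA3 86.7 and 8.2. CA1 and CTX overlapped, both lay above CbG, and CbG lay above CA3. Over CA3, the signal was at least 10.7-fold higher in CA1, 6.04-fold in CTX and 4.10-fold in CbG. The ratio of the CA1 and CA3 means was 37.2, but it rests on a CA3 level far under the array median. The arrays labelled CA3 rep 3 and CbG rep 3 gave 704.6 and 123.8, the first next to CbG replicates 1 and 2 and the second dim. Thus the ratio was 6.63 as labelled and 24.2 with the labels exchanged. A second probe set was dim in all 12 arrays, at 2.6 to 72.3, and gives no level.

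*Ttc9* was highest in CA1, intermediate in CTX and CbG, and dim in CA3. CA1 gave 1117.1, 1015.2 and 1274.7 and CTX 490.0, 482.8 and 497.1. In CbG the signals were 359.0 and 540.2 and in CA3 125.7 and 129.9. CTX and CbG overlapped, and no other pair of regions did. Mean CA1 signal was 1136 ± 131 (SD, n = 3), 2.32 times CTX, 2.53 times CbG and at least 7.27-fold higher than CA3. The arrays labelled CA3 rep 3 and CbG rep 3 gave 315.7 and 226.0, between the CA3 and CbG arrays, so the CA1 to CA3 ratio was 5.96 as labelled and 7.07 exchanged.

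*Lratd1* had its highest signals in CA1 and spread widely elsewhere. CA1 gave 2268.4, 2093.4 and 2164.8, within a narrow range. CTX gave 726.8, 1158.6 and 850.9, CA3 456.9 and 373.0, and CbG 871.6 and 242.1. The CbG arrays differed more between them than CTX did from CA3, and CbG overlapped both. Mean CA1 signal was 2176 ± 88 (SD, n = 3), 2.39 times CTX, 3.91 times CbG and 5.24 times CA3. The array labelled CA3 rep 3 gave 282.9 and that labelled CbG rep 3 gave 640.0, both inside the range of CbG, and the CA1 to CA3 ratio was 5.87 as labelled and 4.44 exchanged.

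**Figure D2:**
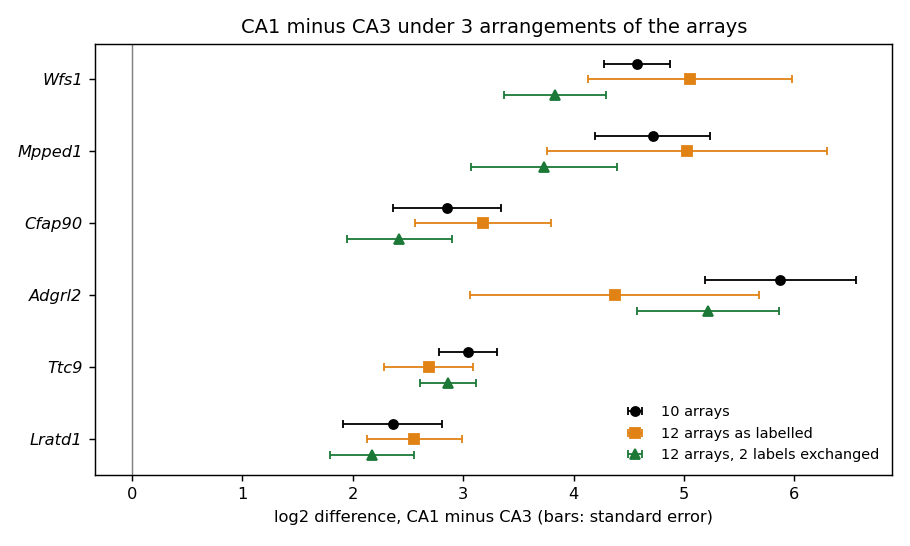
Log2 difference between CA1 and CA3 for the 6 genes, the measure that chose them, over 10 arrays (circles), 12 arrays as labelled (squares) and 12 arrays with 2 labels exchanged (triangles), with bars of 1 standard error. *Adgrl2*, whose CA3 arrays are dim, moves from 5.87 over the 10 arrays to 4.37 as labelled, and *Wfs1* from 4.57 to 3.83 with the labels exchanged.

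After centring each array on its median and with the replicate number as a block, the log2 difference between CA1 and CA3 over the 10 arrays was 4.72 (standard error 0.52) for *Mpped1*, 4.57 (0.29) for *Wfs1*, 2.86 (0.49) for *Cfap90* and 2.37 (0.45) for *Lratd1*. *Adgrl2* at 5.87 (0.69) and *Ttc9* at 3.05 (0.26) were dim in both CA3 arrays, so these fitted values have no exact size and their bounds are the at least 10.7-fold and 7.27-fold given above. All these differences restate the choice of the genes. For *Mpped1*, *Wfs1*, *Cfap90* and *Lratd1* they were 5.03, 5.06, 3.18 and 2.56 as labelled, and 3.73, 3.83, 2.42 and 2.18 exchanged. *Adgrl2* and *Ttc9* had 4.37 and 2.69 as labelled and 5.22 and 2.86 exchanged. The CA3 arrays differed from each other. Without CA3 replicate 1 the difference was 7.37 for *Adgrl2*, 5.81 for *Mpped1* and 3.65 for *Cfap90*, and without CA3 replicate 2 it was 4.38, 3.62 and 2.06, the single CA3 array left being assumed to vary like the other groups.
No threshold separated these genes from the rest. Among 6886 named genes tested over the 10 arrays, 37 other genes had a larger measured ratio of CA1 to CA3 means than *Lratd1*, the lowest of the 6. Many such ratios, like those of *Adgrl2* and *Ttc9*, stand over dim CA3 signals, which have no order among them, so the genes are not ranked. *Dpysl5* gave 17.5 and 6.4 in CA3 and *Pou3f1*, a POU transcription factor and usual CA1 marker, gave 106.9 and 0.8, all of them dim.

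**Figure D3:**
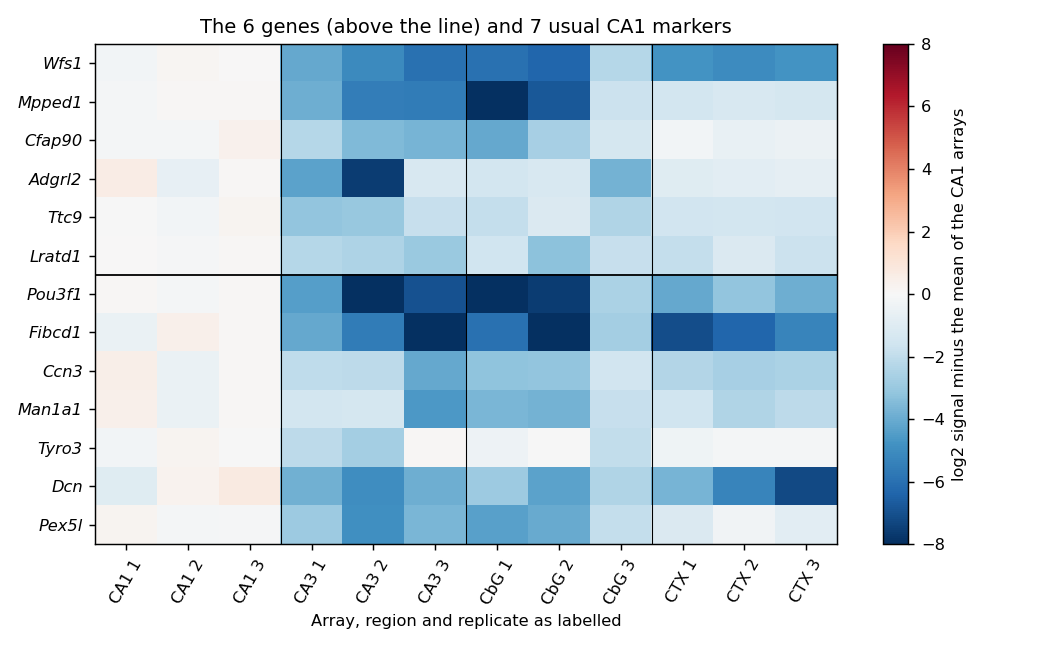
Centred log2 signal of each array minus the mean of the 3 CA1 arrays, for the 6 genes (upper rows) and 7 usual CA1 markers (lower rows), with arrays in columns by labelled region and replicate. Blue is lower than CA1 (the darkest blue also takes in lower values), and the CTX columns are pale for *Cfap90* and *Adgrl2* and dark for *Wfs1*.

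CA1 and CTX were compared to see which genes had high signals in both regions. The log2 difference between CA1 and CTX over the 10 arrays was 4.87 (standard error 0.25) for *Wfs1*, 1.60 (0.38) for *Lratd1*, 1.52 (0.22) for *Ttc9*, 1.39 (0.44) for *Mpped1*, 0.83 (0.59) for *Adgrl2* and 0.45 (0.42) for *Cfap90*. The median over all probe sets tested was 0.28 in this comparison after centring and -0.04 without it, so differences near these sizes depend on the scaling. No p is given for these values, since the CA1 arrays took part in the choice. By deposited signals, every CA1 array lay above every CTX array for 4 of the 6 genes (*Wfs1*, *Mpped1*, *Ttc9*, *Lratd1*) and for 20.2% of all probe sets tested, and after centring for 6 of 6 and 38.4%. Every CA1 array lay above all 7 arrays of the other regions for the same 4 genes, against 6.9% of all, and after centring for 6 of 6, against 8.32%.
Between arrays of replicate number 1, 2 and 3 in turn, the CA1 minus CTX difference was 4.56, 5.21 and 4.84 for *Wfs1*, and 1.31, 1.38 and 1.49 for *Mpped1*. It was 1.54, 0.18 and 0.76 for *Adgrl2* and 0.08, 0.46 and 0.81 for *Cfap90* after centring, a wide spread beside the size of the differences. The log2 difference between CA1 and CbG over the 10 arrays was 6.13 for *Wfs1*, 2.44 for *Lratd1*, 1.49 for *Ttc9* and 1.34 for *Adgrl2*. *Mpped1* and *Cfap90* were dim in both CbG arrays, with the bounds of 58.7-fold and 6.38-fold given above. As labelled, the differences were 4.87, 2.23, 1.82 and 2.19 for those 4 genes, 5.50 for *Mpped1* and 2.72 for *Cfap90*, and the ratio of the CA1 and CbG means of *Mpped1* was 9.15. With the labels exchanged they were 6.09, 2.61, 1.65 and 1.35 for the 4 genes and 6.80 for *Mpped1*, while *Cfap90* was dim in all 3 CbG arrays, with CA1 at least 6.38-fold higher.

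**Figure D4:**
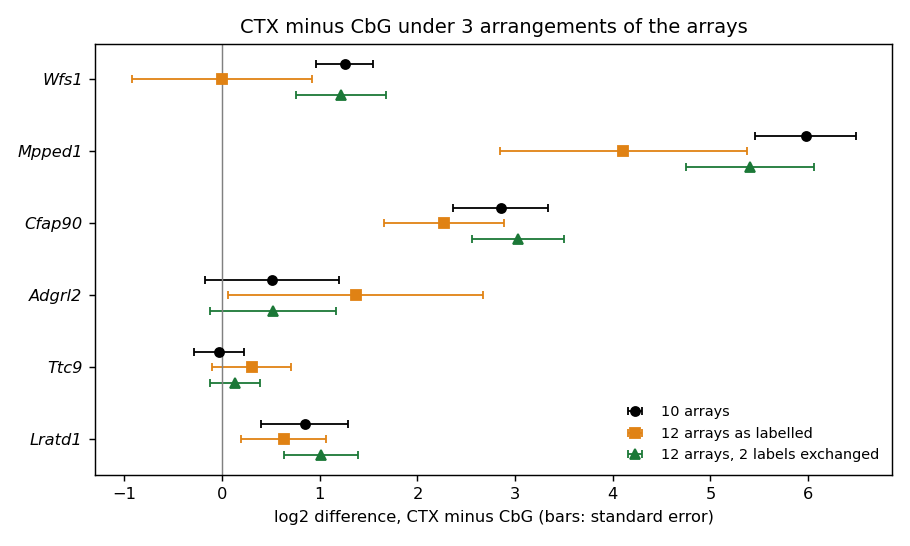
Log2 difference between CTX and CbG for the 6 genes over 10 arrays (circles), 12 arrays as labelled (squares) and 12 arrays with 2 labels exchanged (triangles), with bars of 1 standard error and a line at no difference. *Mpped1* and *Cfap90* lie right of the line in all 3 arrangements, and *Wfs1* as labelled lies on it at -0.004.

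The ratio that chose the genes is of CA1 to CA3 signals. The CTX arrays and CbG replicates 1 and 2 had no stated part in it, and the difference between them was tested. The spread behind this test was shared by all 4 regions, so the CA1 and CA3 arrays enter its standard errors and p-values. Yet 37 other genes had a larger ratio than *Lratd1*, and the 6 genes were chosen with earlier results of these data known. Whether the p-values below are independent of the choice is thus not known. Over the 10 arrays, 3 of the 6 genes were higher in CTX than in CbG and 0 were higher in CbG (limma, adjusted p under 0.05 over 9209 probe sets and at least 1.5-fold), against 10.5% and 11.2% of all probe sets tested. *Mpped1* had a log2 difference of 5.97 (standard error 0.52, limma adjusted p = 0.000167), or at least 22.3-fold higher, with every CTX array above both CbG arrays. *Cfap90* had 2.85 (0.49, limma adjusted p = 0.00496), or at least 4.67-fold higher, and *Wfs1* had 1.25 (0.29, limma adjusted p = 0.0187). *Adgrl2* at 0.51 (0.69), *Ttc9* at -0.03 (0.26) and *Lratd1* at 0.84 (0.45) did not pass, with limma adjusted p of 0.632, 0.945 and 0.211. The SD of centred log2 signal of *Adgrl2* was 2.33 in CA3 and 0.62 in CA1, against 0.13 in CTX and 0.15 in CbG. Its standard error thus does not measure the spread of CTX and CbG alone. With signals under 50 set to 50, *Adgrl2* had 0.51 (0.32, limma adjusted p = 0.275). Besides the 3 genes called, none had an unadjusted p under 0.05. Between arrays of the same replicate number, 1 or 2, the sign differed for *Lratd1*, at -0.32 and 2.10, and for *Ttc9*, at 0.40 and -0.33.
The call for *Wfs1* was lost without CTX replicate 1 (limma adjusted p = 0.0655) or CTX replicate 2 (0.0781). Leaving out CbG replicate 1 or 2 left 1 CbG array, assumed to vary like the other groups, so no call is read from those fits. The log2 difference of *Wfs1* was then 1.29 without CbG replicate 1 and 1.22 without CbG replicate 2. The second *Wfs1* probe set did not pass (limma adjusted p = 0.0699). It was dim in every CTX and CbG array of the 10, so it cannot decide on this difference. Without the signal filter the main probe set of *Wfs1* had an adjusted p of 0.0991 in limma, and that of *Cfap90* was 0.0536. *Lratd1* was at 1.75 without CbG replicate 1 and at -0.06 without CbG replicate 2, each time against a single CbG array under the same assumption. By deposited signals, every CTX array lay above both CbG arrays for 4 of the 6 genes (*Wfs1*, *Mpped1*, *Cfap90*, *Adgrl2*), against 26.7% of all probe sets. Oligodendrocyte marker sums were higher in CTX than in CbG as given above, and those of 4 Purkinje cell markers were 14906 to 35209 in CbG and 3719 to 5326 in CTX. Their part in these differences was not tested.

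Over the 12 arrays as labelled, 0 of the 6 genes passed between CTX and CbG in limma and 2 had an unadjusted p under 0.05. The background was also low, at 0.471% of 9342 probe sets higher in CTX and 0.257% higher in CbG. *Mpped1* had 4.11 (standard error 1.27, limma adjusted p = 0.205), *Cfap90* 2.27 (0.61, limma adjusted p = 0.161) and *Wfs1* -0.004 (0.92, limma adjusted p = 0.999). With the 2 labels exchanged, the CbG group holds the array labelled CA3 rep 3. Which arrays formed the ratio that chose the genes is not known, and either of the 2 arrays in doubt may have taken part, so the p-values as labelled are not independent of the choice either and no p is given for the exchanged arrangement. *Mpped1* then had 5.40 (0.66), *Cfap90* 3.03 (0.47), *Wfs1* 1.22 (0.46) and *Lratd1* 1.01 (0.38), where 12.5% of all probe sets were called higher in CTX and 19.2% higher in CbG.

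CTX also lay above CA3 for most of these genes. Every CTX array lay above both CA3 arrays for 5 of the 6 genes, against 31.1% of all probe sets, the exception being *Wfs1*, whose CTX and CA3 signals overlapped. Both CbG arrays lay above both CA3 arrays for *Adgrl2* and *Ttc9*, 2 of the 6, against 35.8% of all. The CA3 arrays helped to choose the genes for low signals there, so these counts are descriptions.
Ordered by region, the 6 genes fell into 4 forms. *Wfs1* had its high signals in CA1 and a low level in the 3 other regions. *Mpped1* and *Cfap90* were high in CA1 and CTX and low in CA3 and CbG. *Adgrl2* was high in all regions but CA3, and *Ttc9* and *Lratd1* were highest in CA1 with intermediate signals in CTX.

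Relatives of these genes had other orders of regions on the same arrays. *Ttc9b*, a paralog of *Ttc9*, gave 541.5, 646.8 and 623.1 in CA1, 568.8 and 522.1 in CA3, 1251.9 and 1159.7 in CbG and 2188.0, 2181.3 and 2509.7 in CTX. It was thus highest in CTX, and CA1 overlapped CA3. The log2 difference of *Ttc9b* between CA1 and CTX was -1.61 (limma adjusted p = 0.000447) and that between CA1 and CA3 was 0.05 (limma adjusted p = 0.914). Between CTX and CbG it had 0.74 (limma adjusted p = 0.0288). *Ttc9c* lay between 373.8 and 540.1 in all 12 arrays and passed in none of the 3 comparisons.
*Adgrl1*, or latrophilin 1, gave 654.5, 833.9 and 604.6 in CA1, 652.4 and 644.1 in CA3, 245.5 and 141.6 in CbG and 377.0, 486.1 and 457.9 in CTX. In contrast to *Adgrl2*, its CA3 signals fell within the range of CA1, with a log2 difference of 0.07 (limma adjusted p = 0.904). It was higher in CTX than in CbG by 1.13 (limma adjusted p = 0.021), a call that was lost in both arrangements of 12 arrays. *Adgrl3* was dim in every array, at 10.7 to 78.2, and *Adgrl4* was at 12.2 to 337.1, mostly dim. *Mpped2* and *Lratd2* were not among the genes named on the array. The arrays labelled CA3 rep 3 and CbG rep 3 gave 1388.1 and 650.0 for *Ttc9b* and 319.6 and 592.2 for *Adgrl1*.

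**Figure D5:**
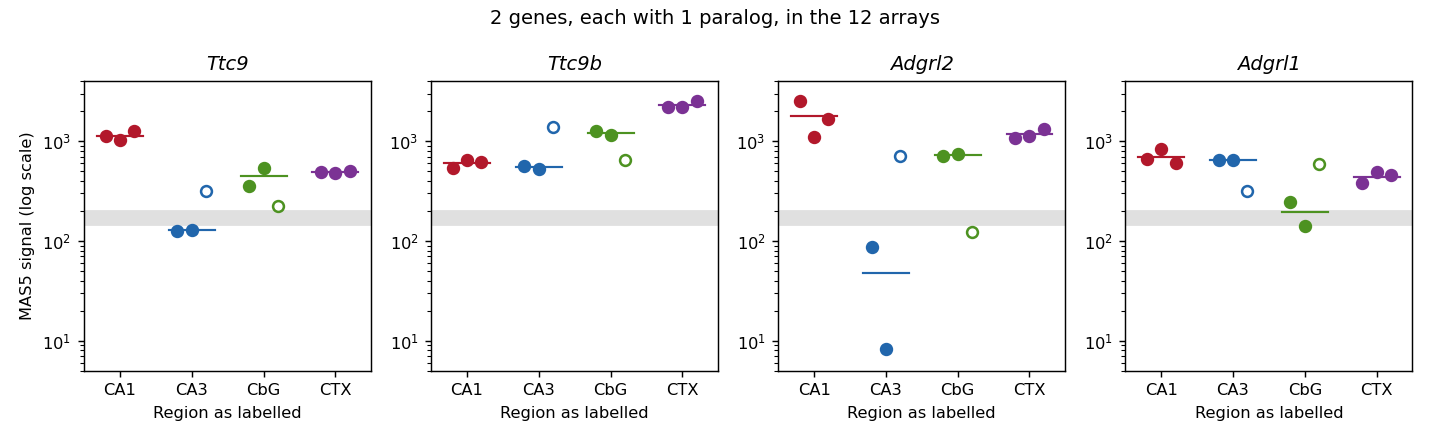
MAS5 signal (log axis) of *Ttc9* and its paralog *Ttc9b* and of *Adgrl2* and its paralog *Adgrl1* in the 12 arrays by labelled region, with lines at the means of the filled points, open circles for the arrays labelled CA3 rep 3 and CbG rep 3 and a grey band over the array medians. *Ttc9* is dim in CA3 where *Ttc9b* has 568.8 and 522.1, and *Adgrl2* is dim in CA3 where *Adgrl1* has 652.4 and 644.1; levels are to be compared along a panel and not between panels.

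The partners of *Adgrl2* include teneurins and FLRT proteins, which bind latrophilins on the facing cell. Of 20 genes of this receptor family and its ligands, 7 were tested over the 10 arrays, and 5 were higher in CTX than in CbG and 0 lower, where 10.5% and 11.2% of all probe sets were called. These were *Tenm4* at 2.33 (limma adjusted p = 0.00016), *Tenm2* at 2.32 (limma adjusted p = 0.000874), *Flrt2* at 2.23 (limma adjusted p = 0.000304), the brain angiogenesis inhibitor *Adgrb1* at 1.66 (limma adjusted p = 0.00564) and *Adgrl1*. The median log2 difference of the 7 was 1.66, against -0.12 over all probe sets. These 5 also passed without centring. In the arrangements of 12 arrays 8 were tested. As labelled 0 passed in limma and 1 had an unadjusted p under 0.05, where 0.471% and 0.257% of all were called. With the labels exchanged 4 were higher in CTX and 1, *Nrxn3*, was higher in CbG, where 12.5% and 19.2% of all were called. Of the 7, 1 was called between CA1 and CA3, namely *Flrt2*, higher in CA1 by 1.10 (limma adjusted p = 0.0205), where 3.83% of all probe sets were called higher in CA1 and 3.5% in CA3. Its signals were 1077.7, 964.3 and 871.9 in CA1 and 422.5 and 502.0 in CA3.

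For *Wfs1*, 24 genes of protein folding and calcium in the endoplasmic reticulum were listed, and 21 were tested. Between CA1 and CA3, 0 were called higher in CA1 in limma and 5 had an unadjusted p under 0.05 in either direction, of which 1 was called lower, the calcium release channel *Ryr2*, at -1.26 (limma adjusted p = 0.0225). The median of the list was -0.13 in this comparison, against -0.03 over all. *Xbp1*, a transcription factor of the unfolded protein response, had 0.76 (limma adjusted p = 0.0721) and passed without centring and with the labels exchanged. With quantile normalization *Xbp1* and *Itpr1* were both called higher in CA1 than in CA3. With the labels exchanged *Ddit3* was called lower in CA1, beside *Ryr2*. Between CTX and CbG, where 10.5% and 11.2% of all probe sets were called, 0 were higher in CTX and 1 was higher in CbG. This was the inositol trisphosphate receptor *Itpr1*, also a Purkinje cell marker, at -1.01 (limma adjusted p = 0.0479). The call was lost without centring, with quantile normalization and in both arrangements of 12 arrays. With the labels exchanged *Creld2* was called higher in CbG instead. Between CA1 and CTX 6 were higher in CA1 and 0 lower, where 21.8% of all probe sets were called higher in CA1 and 9.33% in CTX. The largest were *Manf*, a secreted stress protein of the reticulum, at 1.27 (limma adjusted p = 0.0164), *Itpr1* at 1.21 (limma adjusted p = 0.0103) and the chaperone *Calr* at 0.86 (limma adjusted p = 0.0117). Without centring only *Manf* and *Itpr1* stayed higher in CA1, and *Ddit3* and *Atf4*, transcription factors of the stress response, were higher in CTX.

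For *Cfap90*, 34 axonemal and ciliary genes were listed, 13 were on the array and 9 were tested. Neither CTX against CbG nor CA1 against CA3 gave a call among the 9 over the 10 arrays in limma, and 1 gene in each had an unadjusted p under 0.05. With the labels exchanged *Cfap36* was called higher in CbG than in CTX and *Cfap298* higher in CA1 than in CA3. *Cfap298* at 1.51 (limma adjusted p = 0.0114), *Cfap36* at 1.05 (limma adjusted p = 0.00747) and *Cfap20* at 0.94 (limma adjusted p = 0.00911) were higher in CA1 than in CTX, 3 of the 9, where 21.8% of all probe sets were called higher in CA1 and *Cfap90* itself had 0.45. With quantile normalization *Cfap20* was lost, at 0.55 (limma adjusted p = 0.0577). These 3 were also called without centring, together with *Bbs2* and *Bbs4*, genes of the ciliary base complex, which were then higher in CTX. *Foxj1*, the master regulator of motile cilia, was dim in every array, at 8.4 to 99.5.

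The genes most like each of the 6 were sought by the Pearson correlation of centred log2 signals over the 12 arrays, which needs no region label, among 7755 probe sets. The arrays fall into regions, so these values mostly reflect regional steps and carry no test. Nearest to *Wfs1* were *Sec14l1* at r = 0.982, *Nt5c3a* at 0.968 and *Gpr161*, a receptor of primary cilia, at 0.964. *Gpr161* gave 6971.6, 7757.0 and 6903.7 in CA1, 813.8 and 394.5 in CA3 and 76.0 to 228.9 in CbG and CTX, a similar form to *Wfs1*. Nearest to *Mpped1* were the doublecortin-like kinase *Dclk1* at 0.963, the vesicle GTPase *Rab26* at 0.959 and *Cfap90* itself at 0.954. Nearest to *Cfap90* were the adenylyl cyclase *Adcy2* at 0.984 and *Pex5l*, an auxiliary subunit of HCN channels and a usual CA1 marker, at 0.958. *Adcy2* gave 2368.1 to 2698.0 in CA1 and 1508.1 to 1782.6 in CTX, against 187.0 to 373.0 in CA3 and CbG.
*Adgrl2* ran with *Dcaf17* at 0.964, the adhesion molecule *Alcam* at 0.955 and *Dpysl5* at 0.943. *Dpysl5*, a collapsin response mediator, gave 17.5 and 6.4 in CA3 and 233.6 to 593.6 in the other regions, so it shared the dim CA3 signals. *Ttc9* ran with the protein kinase C gene *Prkcb* at 0.943, *Lzts3* at 0.923 and *Tbc1d1* at 0.913, and *Lratd1* with *Sox4* at 0.917, *Leprot* at 0.911 and the second *Wfs1* probe set at 0.889. Among the 6 genes themselves, the highest value was that of *Mpped1* with *Cfap90* (0.954), followed by *Wfs1* with *Lratd1* (0.864) and *Adgrl2* with *Ttc9* (0.825). The lowest was that of *Wfs1* with *Adgrl2* (0.313).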

How the data were processed

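RNA of laser-captured neurons was measured on 12 RAE230A arrays, 1 per region and replicate. The deposited values are MAS5 signal intensities, which the authors made in GeneChip Operating Software and scaled to 1 target signal per array. The table holds 15923 probe sets and all 12 columns were assigned to samples by their labels. Depth does not apply to arrays, and their number limits the precision. The 57 controls were left out. A gene table of the array gave 12789 probe sets 1 symbol and 312 several, and only those with 1 symbol are named.

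Each log2 signal was taken relative to the median of its array. The model in limma (version 3.58.1, R 4.3.3) held a mean for each region and the replicate number as a block, since the study used paired tests. That arrays of 1 number share an animal was assumed, as the labels do not say it. Over 10 arrays, 9209 probe sets that exceeded the array median in at least 2 arrays were tested. A call needed a Benjamini-Hochberg adjusted p under 0.05 together with a fold of at least 1.5. Deviations from the region means correlated at 0.101 on average between arrays of 1 number (-0.0375 to 0.168, 13 pairs) and at -0.0545 between others. Because the region means were subtracted, these 2 averages offset each other, so the second is not a separate comparison. P-values measure the spread between these samples, which may be partly technical. The model takes 1 spread per probe set over all 4 regions, so a comparison of 2 regions also draws on the arrays of the others.

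The genes, the lists and the set of 10 arrays were chosen with earlier results of these data known. Genes were named by a rule of size, likeness or list. Alternatives were the 12 arrays as labelled or exchanged, no block, quantile normalization, no centring, 50 added or set as a floor, other filters, a trend prior, other probe sets and leaving out each replicate number or array. The steps were tested on simulated data. Promoters are those of RefSeq. Figures were made with Python 3.11.15 and matplotlib 3.10.9. Detection calls were not used here, and proteins were not analysed here.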

Additional observations from a re-analysis of the deposited data

How the results depend on the processing

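The count of genes higher in CTX than in CbG, 3 over the 10 arrays, was 0 with the 12 arrays as labelled and 1 without the signal filter, where 15866 probe sets entered the adjustment. It was 3 without the replicate block, and 2 or 3 when replicate number 3, a CA1 array or a CTX array was left out. No count is given with the labels exchanged, since either array in doubt may have taken part in the choice of the genes. Nor is a count given where an omission left 1 CA3 or CbG array. The count higher in CbG was 0 under each alternative for which a count is given. Signs turned for *Wfs1* as labelled, at -0.0044, and for genes that did not pass. *Ttc9*, at -0.03, had 0.30 as labelled, 0.13 exchanged, 0.024 with no replicate block, 0.056 with quantile normalization and 0.11 with no centring, and between -0.45 and 0.34 when a replicate number or array was left out. *Lratd1* lay between -0.28 and 1.92 and *Adgrl2* between -0.33 and 1.35 over the same omissions. The block changed no call among the 6 genes. Over all probe sets, 1075 were called higher in CTX and 1178 in CbG without it, against 971 and 1028 with it. The cause of these shifts was not tested. Centring set the balance over all probe sets: between CTX and CbG 971 were higher in CTX and 1028 in CbG, against 1178 and 739 without centring and 1222 and 994 with quantile normalization. Between CA1 and CTX 2011 were higher in CA1 and 859 in CTX, against 802 and 1324, and 1014 and 1136. Adding 50 or a floor of 50 before log2 lowered the CA1 to CA3 difference of *Adgrl2* from 5.87 to 4.19 and 4.57, as its CA3 signals are dim.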

Other observations

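Other genes had a larger CA1 to CA3 ratio than *Lratd1*. The 10 with the largest measured ratios over the 10 arrays, given in no order since most were dim in CA3, also differed in where else they were high. *Htr5b*, a serotonin receptor, gave 1897.7, 2462.4 and 1803.2 in CA1 and at most 127.6 in the 7 arrays of the other regions. *Fibcd1* gave 1397.3, 2707.1 and 2038.5 in CA1 and at most 115.7 in those 7, and *Inhbb*, an inhibin and activin subunit, gave 571.2 to 610.0 and at most 166.9. These 3 and the proteoglycan *Dcn*, at 381.4 to 1150.3 in CA1, were dim in the 7 CA3, CbG and CTX arrays among these 10. The array labelled CbG rep 3 gave 252.2 for *Htr5b* and 316.1 for *Fibcd1*, above its median of 161.8, and 77.9 for *Inhbb* and 147.7 for *Dcn*. *Cadps2*, which primes dense-core vesicles for release, was not highest in CA1. It gave 2684.0 to 3124.0 there, 9031.8 and 9100.6 in CbG, 2784.0 to 4360.5 in CTX and 218.3 and 39.3 in CA3, so its ratio stood over low CA3 signals, as for *Adgrl2*. The array labelled CA3 rep 3 gave 9763.8 for *Cadps2*, and that labelled CbG rep 3 gave 525.3.

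*Bhlhe41*, a circadian repressor, gave 3782.3 to 4806.0 in CA1, 567.5 and 53.7 in CA3, 2671.9 and 1726.2 in CbG and 879.0 to 1858.4 in CTX. *Smad3*, which carries signals of the transforming growth factor family, gave 493.4 to 702.7 in CA1 and at most 199.9 in the other 7 arrays. *Slc28a2*, a nucleoside transporter, was dim in 2 of 3 CA1 arrays, at 57.6, 195.7 and 83.3, and gave 269.7 and 216.0 in CbG, so its ratio of 18.4 rests on CA3 signals of 5.9 and 6.3. These ratios chose the genes named here, and no test was made of them.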
